A study of Arabidopsis thaliana with 24 samples.

Results

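Some Arabidopsis thaliana genes gave RNA in seedlings of one natural accession and next to none in another. Such genes were taken from wild-type (WT) libraries of the accessions Landsberg erecta (Ler) and Columbia (Col). The genes were selected on the WT levels alone, so the difference between the WT accessions is a description. A gene was called Ler-only where its mean over the 3 Ler WT libraries was at least 1 CPM (counts per 1000000 counts of the library) and its mean over the 3 Col WT libraries was under 0.05 CPM, and Col-only where the reverse held. Of 33320 genes of chromosomes 1 to 5 with a value in every library, 80 were Ler-only and 103 were Col-only, together 183. At least 1 CPM in WT of one accession or both was reached by 20273 genes.

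The RNA came from 24 libraries of whole seedlings in 8 groups of 3. The groups were prmt5-5 and WT seedlings of Ler, prmt5-5 and WT seedlings of Col, and prmt5-5 and WT seedlings of both reciprocal F1 hybrids, labelled Col x Ler and Ler x Col. All seedlings were grown on MS agar for 9 days in continuous white light at 22 °C, after 4 days in the dark and cold, and polyadenylated RNA was sequenced as 100 bp reads. The prmt5-5 allele was found in Col-0 and was carried into Ler by 7 backcrosses, and the prmt5-5 hybrids came from prmt5-5 parents of both accessions. Fewer cells that express a gene and less RNA per cell cannot be told apart in whole seedlings. Nothing in the labels tells if the 3 samples of a group were grown separately, so p-values reflect only the spread between these samples, which may be technical.

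PRMT5 encodes an arginine methyltransferase that places symmetric dimethyl marks on Sm proteins of the spliceosome and on histones, and Arabidopsis prmt5 mutants are known for altered splicing and late flowering. Natural accessions differ in their gene content, because genes are duplicated, deleted and broken, and also in the DNA methylation that silences transposon-derived and repeated genes. Counts on the Col reference genome cannot tell a gene that is silent in Ler from one that is missing there. In an F1 hybrid both alleles share the same nucleus, so an allele that is silent there lacks RNA next to an active partner.

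The 12 parental libraries held 36993754 to 72714639 counts, and the 12 F1 libraries held 6047673 to 29376326 counts assigned to an allele. PRMT5 RNA (AT4G31120) did not separate the genotypes, with 37.6, 33.3 and 30.6 CPM in Ler prmt5-5 against 32.0, 33.9 and 32.7 CPM in Ler WT. Its alleles in the hybrids did: the Ler allele of PRMT5 had 0 to 2 counts in each prmt5-5 F1 library and 40 to 153 in each WT F1 library. One library stood apart within its group. Replicate 1 of Ler prmt5-5 differed from replicates 2 and 3 by a chi-square per gene of 69.4 and 55.55, against 7.19 between replicates 2 and 3, and counts that change without it are given beside the results.

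Levels are in CPM without adjustment for gene length, as the selection used them. The median WT level was 2.15 CPM for Ler-only genes in Ler and 3.04 CPM for Col-only genes in Col, and 37 Ler-only and 31 Col-only genes lay under 2 CPM. The Ler-only gene with the highest CPM was the pseudogene AT5G20750, with 71.5, 52.4 and 66.7 CPM in Ler WT and 0.0448, 0 and 0.0413 CPM in Col WT. The Col-only gene with the highest CPM was AT5G28920, which encodes a protein of unknown function, with 0, 0.0182 and 0.105 CPM in Ler WT and 20.8, 23.3 and 18.3 CPM in Col WT. No count at all in the 3 WT libraries of the other accession was found for 23 Ler-only and 23 Col-only genes. The thresholds fell within a continuous range of levels. AT5G33432 was just inside with 1.00 CPM in Ler WT and AT1G09930 (OPT2, an oligopeptide transporter gene) just outside with 0.992 CPM. At the other threshold AT4G19570 was inside with 0.0471 CPM in Col WT, whereas AT4G19240 stayed outside with 0.0504 CPM in Col WT although it had 51.8 CPM in Ler WT. For the Col-only set AT1G30160 was inside with 1.06 CPM in Col WT and the serine carboxypeptidase-like gene scpl2 outside with 0.992 CPM. AT1G47520 was inside with 0.0475 CPM in Ler WT and AT3G60150 outside with 0.0506 CPM. One member was uneven between libraries of the same group. CRU3, which encodes the seed storage protein cruciferin, had 0.195, 3.38 and 0 CPM in Ler prmt5-5 and 0, 1.46 and 3.93 CPM in Ler WT.

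**Figure D1:**
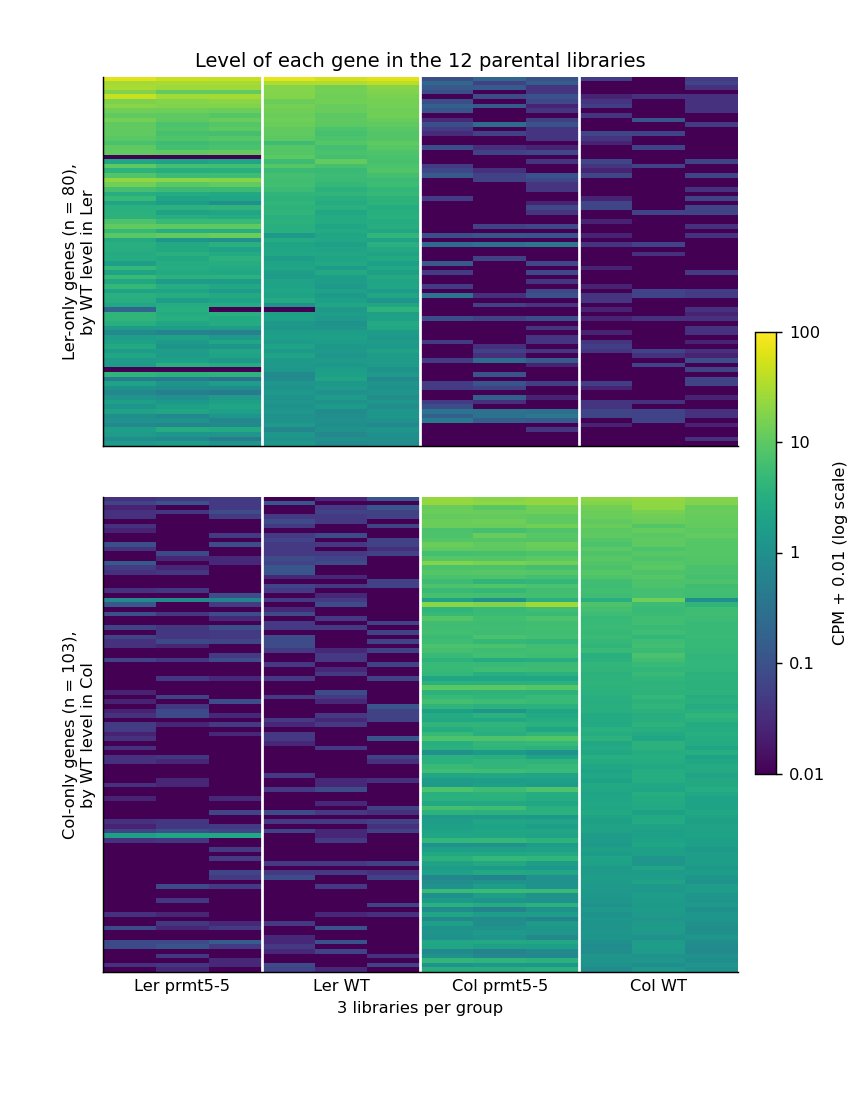
Level of each Ler-only gene (upper block, n = 80) and Col-only gene (lower block, n = 103) in the 12 parental libraries, as CPM + 0.01 on a log colour scale, with genes in rows ordered by WT level and 3 libraries per group in columns. Most rows keep their level in prmt5-5, and the 2 dark rows among the Ler-only genes in Ler prmt5-5 without a like row in Ler WT are AT4G32230 and AT4G32220.

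The difference between the accessions was also present in the prmt5-5 libraries, which had no part in choosing the genes. Both thresholds were met again there by 54 of 80 Ler-only and 87 of 103 Col-only genes. Summed over the Ler-only genes, the level was 549, 447 and 453 CPM in Ler prmt5-5 and 449, 387 and 453 CPM in Ler WT, against 3.45, 3.22 and 3.24 CPM in Col prmt5-5 and 1.12, 0.892 and 1.29 CPM in Col WT. Summed over the Col-only genes, it was 4.30, 4.69 and 4.79 CPM in Ler prmt5-5 and 2.21, 1.77 and 1.94 CPM in Ler WT, against 527, 510 and 523 CPM in Col prmt5-5 and 436, 496 and 425 CPM in Col WT. Every library of the silent accession stayed far below every library of the other. The WT sums of the silent accession were limited by the rule itself and the prmt5-5 sums were not, so their order is no finding. In Ler prmt5-5, AT2G15128 gave 1.89, 2.35 and 2.42 CPM of the Col-only sum and AT1G26390 gave 0.751, 0.793 and 0.616 CPM. Without these 2 genes, left out after their values had been seen, the Col-only sum was 1.66, 1.55 and 1.75 CPM in Ler prmt5-5 and 2.18, 1.71 and 1.94 CPM in Ler WT, which overlap. In a test of Ler against Col within prmt5-5, which called 28.1% of 22924 genes in either direction, 77 of 80 Ler-only genes were higher in Ler and 101 of 103 Col-only genes were lower in Ler. The exceptions were the Ler-only genes AT4G32220, AT4G32230 and CRU3 and the Col-only genes AT2G15128 and AT1G26390.

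Both sets were rich in annotated pseudogenes. In the RefSeq annotation of the TAIR10.1 assembly, which placed 78 of the 80 Ler-only and all 103 Col-only genes, 44.9% of Ler-only and 40.8% of Col-only genes were pseudogenes, against 0.964% of the other 20011 genes with at least 1 CPM in WT. A near-identical copy elsewhere, covering more than 50% of the gene at 95% identity or more, was found for 21.8% of Ler-only and 12.6% of Col-only genes, against 0.954% of the others. Reads can be split between such copies, so the counts of these genes are uncertain. Types and copies were both taken from the Col genome, so the Ler allele of a gene may differ from its annotation here. The genes often lay in gene-poor stretches: 26.9% of Ler-only and 21.4% of Col-only genes had fewer than 60 protein-coding genes within 250 kb, against 1.86% of the others. In all these comparisons the other genes were not matched to the sets by level. Non-coding RNA genes made up 11.7% of the Col-only and 0% of the Ler-only set. An overlapping gene on the opposite strand was present for 3.85% of Ler-only genes, 22.3% of Col-only genes and 28.6% of the others. Whether the counting used strand is not stated in any source here, so reads of such partners may be mixed, as for the overlapping Col-only pair AT1G34842 and AT1G34844. The Col-only genes AT5G27895, AT3G59250 and AT5G28920, named below or above, also have such a partner. The Ler-only gene AT3G31023 overlaps AT3G31005 on its own strand.

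**Figure D2:**
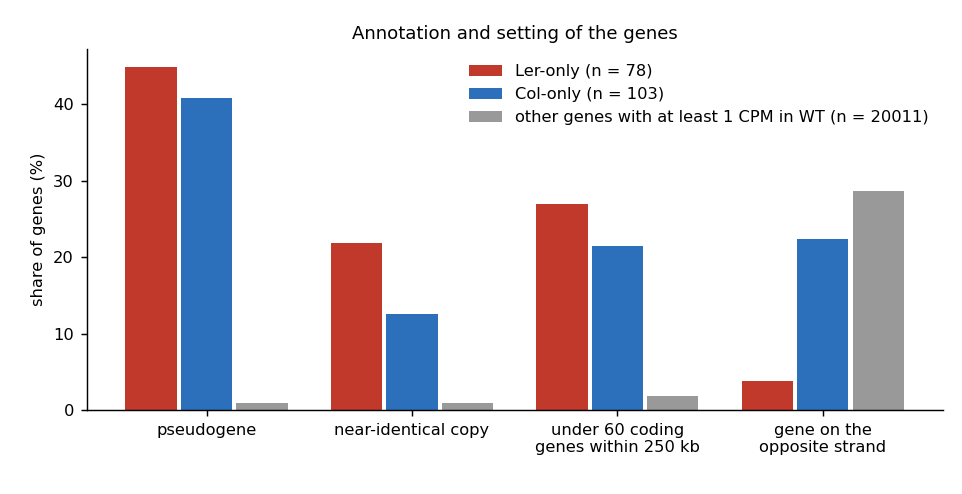
Share of genes (%) with each annotation feature among Ler-only genes (n = 78), Col-only genes (n = 103) and other genes with at least 1 CPM in WT (n = 20011). The pseudogene bars stand at 44.9% and 40.8% for the sets and at 0.964% for the others, while genes with a partner on the opposite strand are fewest in the Ler-only set (3.85%).

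Members were then counted in gene families known for variation between accessions, beside 0.896% of all placed genes with at least 1 CPM in WT that were members. Of 132 expressed NLR genes, which encode intracellular immune receptors, 0 were Ler-only and 2 were Col-only (1.52%). Of 380 expressed receptor-like kinase and receptor-like protein genes, 0 were Ler-only and 3 were Col-only (0.789%). F-box genes, whose products select proteins for ubiquitination, contributed 0 Ler-only and 6 Col-only genes out of 197 expressed (3.05%). No member came from the 291 expressed genes of small secreted and defensin-like proteins. Enzymes of specialised metabolism gave 2 Ler-only and 4 Col-only genes out of 839 (0.715%); among the Col-only ones were the neighbouring terpenoid-related genes AT3G32030 and AT3G32040. Genes annotated as transposon-derived gave 3 Ler-only and 1 Col-only gene out of 55 (7.27%).

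Of these 4 genes, 3 are Sadhu elements, a family of plant retroposons that do not encode proteins and whose copies are methylated and silent in some accessions. Of 13 Sadhu genes with at least 1 CPM in WT, 2 were Ler-only (SADHU3-1 and SADHU5-2) and 1 was Col-only (SADHU2-1); this family was picked after its values had been seen. The first 100 bases of each are shown from the Col reference (RefSeq, TAIR10.1) for comparison of the copies. Capitals mark CAATCGTT, searched on both strands, which was present in the first 100 bases of 8 of 16 Sadhu genes and of 0.269% of 37899 annotated genes. These letters are the opening bases of SADHU2-1 itself, so their count among Sadhu genes is a description and not a test.
SADHU3-1, chr3:15813957-15814056, minus strand: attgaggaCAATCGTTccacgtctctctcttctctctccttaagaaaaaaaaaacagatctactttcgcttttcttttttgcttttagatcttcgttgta
SADHU5-2, chr5:9957541-9957640, minus strand: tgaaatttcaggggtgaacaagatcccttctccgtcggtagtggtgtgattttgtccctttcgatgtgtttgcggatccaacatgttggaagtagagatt
SADHU2-1, chr1:12841019-12841118, minus strand: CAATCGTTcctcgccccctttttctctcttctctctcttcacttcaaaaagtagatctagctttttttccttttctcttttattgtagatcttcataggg
The letters are in the start of SADHU3-1 and SADHU2-1 and not in the start of SADHU5-2. SADHU3-1 had 4.12, 3.65 and 4.04 CPM in Ler prmt5-5 against 0.784, 1.82 and 1.41 CPM in Ler WT, with no overlap, and rose in prmt5-5 (log2 fold change 1.51, SE 0.37, adjusted p = 0.00853). SADHU5-2 had 10.5, 10.2 and 8.68 CPM in Ler prmt5-5 and 12.1, 9.90 and 13.9 CPM in Ler WT, overlapping groups (adjusted p = 0.145). SADHU2-1, which overlaps the Col-only pseudogene AT1G35110 and may share its reads, had 12.2, 12.3 and 14.0 CPM in Col prmt5-5 and 11.6, 8.52 and 10.8 CPM in Col WT (adjusted p = 0.335). In the hybrids SADHU3-1 rose in Col x Ler (log2 fold change 1.33, adjusted p = 0.0195), while in Ler x Col its log2 fold change was 0.88 (adjusted p = 0.0564).

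The first comparison asked what prmt5-5 did to Ler-only genes in Ler. Among the largest rises was that of AT5G17090, a gene of the cystatin superfamily, whose members inhibit cysteine proteases. It had 21.6, 19.4 and 18.4 CPM in Ler prmt5-5 against 6.03, 5.33 and 5.24 CPM in Ler WT, with no overlap (log2 fold change 1.79, SE 0.15, adjusted p = 6.75e-06). Of the 80 genes, 13 rose and 9 fell (27.5% called) and 58 were not called, beside a background of 35.7% of 22924 genes called in Ler. The WT libraries of this test also served to choose the genes. The median log2 fold change was 0.03 over the set and 0.01 over all genes tested. Without Ler prmt5-5 replicate 1 the counts were 14 risen and 13 fallen, and without replicate 3 of that group 5 fell.

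Of the 35 pseudogenes among the Ler-only genes, 6 rose (17.1%), 4 fell (11.4%) and 25 were not called, beside 18.9% of all genes called higher and 16.9% called lower in Ler. The pseudogene AT3G31023 had 10.64, 10.095 and 10.03 CPM in Ler prmt5-5 against 3.16, 2.33 and 3.14 CPM in Ler WT (log2 fold change 1.79, SE 0.21, adjusted p = 2.94e-05). AT4G04402, a two-component phosphorelay gene of the kind that passes cytokinin signals, had 46.1, 27.5 and 28.9 CPM against 18.1, 13.0 and 15.9 CPM (log2 fold change 1.08, SE 0.20, adjusted p = 0.00166). All 3 prmt5-5 libraries were above all 3 WT libraries for both genes. AT4G16215 had 9.59, 11.0 and 12.5 CPM in Ler prmt5-5 against 1.39, 2.24 and 4.35 CPM in Ler WT (log2 fold change 2.03, SE 0.29, adjusted p = 0.000209), but a near-identical copy makes its count uncertain. The pseudogene AT2G13750 rose by less, with 30.6, 25.8 and 26.3 CPM against 19.0, 14.0 and 19.0 CPM (log2 fold change 0.63, SE 0.15, adjusted p = 0.0056). The highest member, AT5G20750, did not pass the test, with 66.1, 47.5 and 44.4 CPM in Ler prmt5-5 and 71.5, 52.4 and 66.7 CPM in Ler WT (adjusted p = 0.141).

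Among the 9 Ler-only genes that fell, hemb2 (AT1G44318), which is annotated as an aldolase superfamily gene, had 2.38, 2.04 and 2.29 CPM in Ler prmt5-5 against 5.63, 10.7 and 6.89 CPM in Ler WT (log2 fold change -1.84, SE 0.27, adjusted p = 0.000165). The pseudogene AT3G25815 had 0.807, 0.574 and 0.539 CPM against 1.71, 1.71 and 1.57 CPM (log2 fold change -1.42, SE 0.29, adjusted p = 0.00286). Neither gene had overlapping groups. ATHSP22.0, a small heat shock protein gene, had 0.473, 0.439 and 0.308 CPM in Ler prmt5-5 against 0.856, 2.19 and 0.786 CPM in Ler WT (log2 fold change -1.70, adjusted p = 0.0205), and this call was lost when single libraries were left out in 3 of 12 fits.

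A further 2 falls lay in a stretch where the prmt5-5 hybrids gave almost no counts from the Ler allele. AT4G32230 had 0 counts in all 3 Ler prmt5-5 libraries against 9.66, 6.62 and 7.02 CPM in Ler WT, at least 480.0-fold lower when a floor of 3 counts over the group is used. Its neighbour AT4G32220 also had 0 counts in Ler prmt5-5 against 1.34, 1.73 and 1.07 CPM in Ler WT, at least 86.4-fold lower. In the prmt5-5 hybrids the genes within 100 kb of this pair had a Ler share of 0.329% of their allele counts, against 49.8% in WT hybrids. The stretch of low Ler share ran in 200 kb steps from 14600001 to 16200000 on chromosome 4 and held PRMT5. Its first step, up to 14800000, had a pooled Ler share of 36.97% and a median share of 48.86% in prmt5-5 F1. For AT4G32230 and AT4G32220 an effect of the mutation and Col sequence kept there in the Ler mutant cannot be told apart. Without them 7 Ler-only genes fell.

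**Figure D3:**
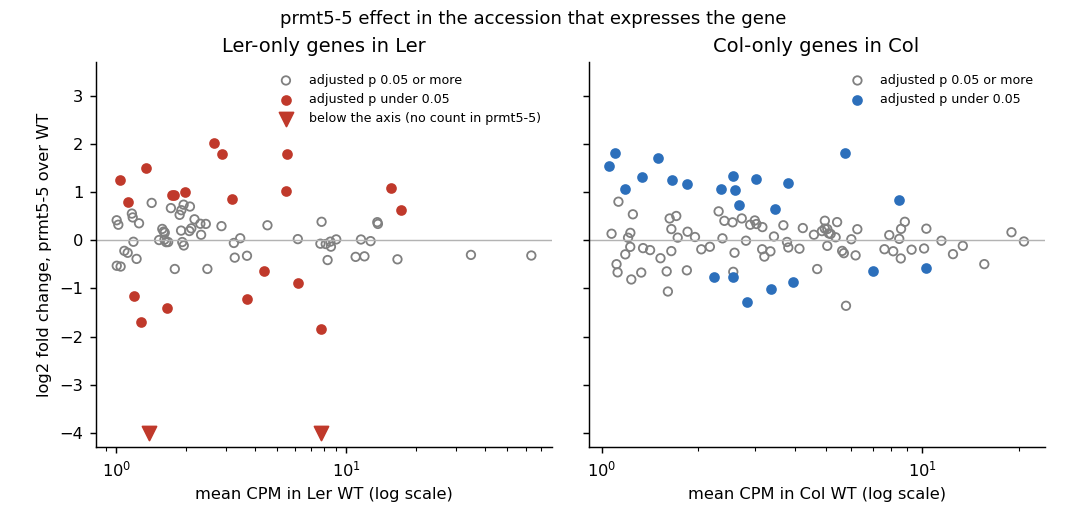
Change in prmt5-5 against WT (log2 fold change, vertical axis) by mean CPM in WT (log axis) for Ler-only genes in Ler (left, n = 80) and Col-only genes in Col (right, n = 103), with filled points past an adjusted p of 0.05. The 2 triangles are AT4G32230 and AT4G32220, which had no count in Ler prmt5-5 and are drawn below the axis range.

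The second comparison asked the same of Col-only genes in Col. AT1G52100, a gene of the mannose-binding lectin superfamily, had 19.4, 17.7 and 26.8 CPM in Col prmt5-5 against 7.50, 5.60 and 4.15 CPM in Col WT, with no overlap (log2 fold change 1.82, SE 0.29, adjusted p = 0.000783). Of the 103 genes, 16 rose and 7 fell (22.3% called) and 80 were not called, beside a background of 26.9% of 22924 genes called in Col. The median log2 fold change was 0.06 over the set and 0.01 over all genes tested. The number that fell depended on which libraries entered: it was 3 without Col prmt5-5 replicate 2 or Col WT replicate 1, 4 without any one of the other 4 Col libraries, and 10 without Ler prmt5-5 replicate 1, which shares the estimate of spread. With the replicate number as a block it was 4, and with DESeq2 it was 13.

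Of the 6 F-box genes among the Col-only genes, 4 rose in Col prmt5-5, 2 did not pass the test and 0 fell, beside 14.6% of all genes called higher and 12.3% called lower in Col. A count over 6 genes shows nothing particular to the family. AT5G44980 had 4.32, 4.04 and 3.64 CPM in Col prmt5-5 against 1.15, 1.24 and 0.894 CPM in Col WT (log2 fold change 1.81, SE 0.24, adjusted p = 0.000205). AT3G59250 had 9.42, 9.44 and 8.64 CPM against 3.85, 3.92 and 3.64 CPM (log2 fold change 1.20, SE 0.14, adjusted p = 0.000183). AT5G56370 (log2 fold change 1.06, adjusted p = 0.0161) and AT5G42460 (log2 fold change 0.72, adjusted p = 0.0131) rose by less. The call of AT5G56370 was lost in 4 of the alternative fits and that of AT5G42460 in 2. In all 4 genes the prmt5-5 and WT libraries did not overlap, whereas AT3G52680 (log2 fold change -0.11) and AT5G42730 (log2 fold change 0.14) did not pass the test. The NLR members did not pass the test. AT1G58410 had 1.936, 2.697 and 2.407 CPM in Col prmt5-5 and 1.61, 1.57 and 1.71 CPM in Col WT, with no overlap (adjusted p = 0.269). AT4G09430 had 3.51, 3.82 and 3.02 CPM against 2.18, 3.14 and 2.37 CPM, with overlap (adjusted p = 0.217). The 3 receptor-like genes did not pass the test either. AT3G43740, which encodes a leucine-rich repeat protein, had 23.3, 21.5 and 22.3 CPM in Col prmt5-5 and 18.4, 21.0 and 17.6 CPM in Col WT (adjusted p = 0.462).

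Of the 42 pseudogenes among the Col-only genes, 8 rose (19.0%), 5 fell (11.9%) and 29 were not called. Among all genes tested in Col, 14.6% were called higher and 12.3% lower. Pseudogenes, 40.8% of the set, were thus 8 of the 16 rises and 5 of the 7 falls. With shares near those of all genes, nothing particular to pseudogenes is read from these counts. AT5G27895 had 5.20, 5.32 and 5.08 CPM in Col prmt5-5 against 1.46, 1.35 and 1.68 CPM in Col WT (log2 fold change 1.72, SE 0.19, adjusted p = 0.000158). AT4G08115 had 7.44, 5.62 and 7.62 CPM against 2.46, 2.27 and 2.97 CPM (log2 fold change 1.35, SE 0.22, adjusted p = 0.000932). Among genes that fell, the pseudogene AT2G12460 had 1.03, 1.52 and 1.14 CPM in Col prmt5-5 against 2.43, 3.03 and 3.05 CPM in Col WT (log2 fold change -1.27, SE 0.25, adjusted p = 0.0043), and this call held when any single library was left out. AT4G28900, another pseudogene, had 1.86, 1.20 and 2.16 CPM against 3.24, 3.68 and 3.23 CPM (log2 fold change -1.01, SE 0.31, adjusted p = 0.0282), a call lost in 5 of the alternative fits. The highest member, AT5G28920, had 23.6, 19.0 and 21.6 CPM in Col prmt5-5 and 20.8, 23.3 and 18.3 CPM in Col WT, overlapping groups (adjusted p = 0.925).

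**Figure D4:**
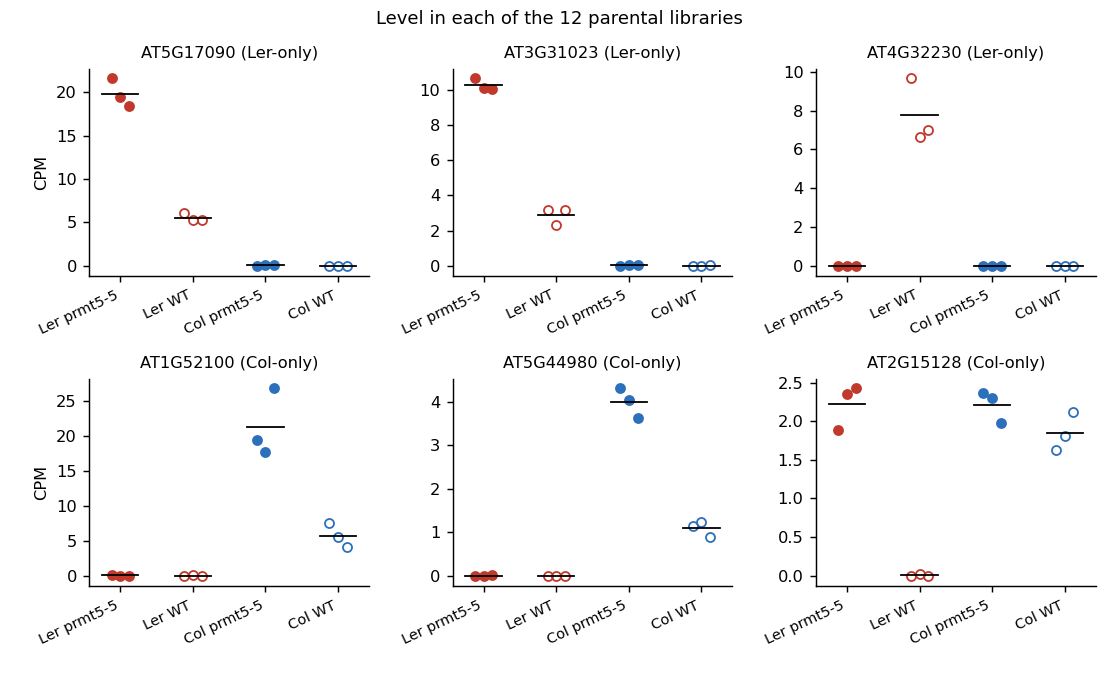
CPM of 6 genes in each of the 12 parental libraries (points) with group means (lines), for the Ler-only genes AT5G17090, AT3G31023 and AT4G32230 and the Col-only genes AT1G52100, AT5G44980 and AT2G15128. AT2G15128 has 1.89 to 2.42 CPM in Ler prmt5-5 and at most 0.0182 CPM in Ler WT, while AT4G32230 has 0 counts in Ler prmt5-5.

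The third comparison asked whether prmt5-5 gave RNA where the WT accession had almost none. The choice of genes held the WT side of it near 0 in the same libraries. Numbers of calls in each direction, adjusted p-values and the interval of a ratio are therefore a description here. In Ler, 2 Col-only genes reached levels well above WT. AT2G15128, a non-coding RNA gene, had 136, 139 and 126 counts in Ler prmt5-5 and 0, 1 and 0 counts in Ler WT. This is a ratio of 327.0 between CPM levels, with an exact 95% counting interval of 58.3 to 12900.0 (adjusted p = 3.94e-08). Its level of 1.89, 2.35 and 2.42 CPM in Ler prmt5-5 was near that in Col, where it had 2.36, 2.30 and 1.98 CPM in prmt5-5 and 1.63, 1.81 and 2.12 CPM in WT, so 2.42 CPM was above every Col library and the others lay within their range. The gene is short, and its whole reference sequence (RefSeq, TAIR10.1, Col) is shown because it was the one member that reached at least 1 CPM in prmt5-5 of the other accession.
AT2G15128, chr2:6564104-6564316, plus strand: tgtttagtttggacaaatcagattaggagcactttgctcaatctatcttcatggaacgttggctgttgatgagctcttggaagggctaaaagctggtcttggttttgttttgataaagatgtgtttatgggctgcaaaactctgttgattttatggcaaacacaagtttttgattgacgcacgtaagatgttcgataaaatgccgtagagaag
AT2G15128 also lay in a stretch of reduced Ler share. Genes within 100 kb of it had a Ler share of 11.2% in prmt5-5 hybrids, against 46.9% in WT hybrids, so Col sequence kept in the Ler mutant and an effect of the mutation cannot be told apart. AT1G26390, a berberine-bridge type FAD enzyme gene, had 54, 47 and 32 counts (0.751, 0.793 and 0.616 CPM) in Ler prmt5-5 against 2, 2 and 0 counts in Ler WT (adjusted p = 0.0434). It lay outside those stretches, with a Ler share of its neighbours of 47.9% in prmt5-5 hybrids and 47.6% in WT hybrids. Its level was uneven in Col, with 2.10, 1.10 and 3.46 CPM in prmt5-5 and 3.25, 13.1 and 0.990 CPM in WT, and its call in Ler was lost in 7 of 12 fits that left out 1 library. In the hybrids 82 of its 154 counts (53.2%, 95% exact interval 45.0% to 61.3%) came from the Ler allele in prmt5-5 F1, and 18 of 55 (32.7%, 20.7% to 46.7%) in WT F1. The other 9 Col-only genes called in Ler were called lower from at most 4 counts in any library, levels at which no change can be read.

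In Col, 10 Ler-only genes were called higher in prmt5-5 and 0 lower, beside 14.6% of all genes called higher. The rule had capped these genes at 0.05 CPM in the same Col WT libraries, which left little room for a lower call, so nothing is read from this split. Adjusted p-values of single genes draw on those WT libraries too and are likewise a description. The mean levels of the 10 genes in Col prmt5-5 were 0.0372 to 0.305 CPM, far below Ler. In 5 of them every Col prmt5-5 library had more than 3 counts. The DnaJ-domain chaperone gene AT4G19570 had 16, 12 and 19 counts in Col prmt5-5 against 4, 2 and 2 counts in Col WT (adjusted p = 0.000363). The pseudogene AT1G30940 had 12, 12 and 24 counts against 2, 2 and 0 counts (adjusted p = 0.000958). AT3G11180, a gene of the oxygenases that use 2-oxoglutarate, had 8, 12 and 24 counts against 4, 2 and 2 counts (adjusted p = 0.0027). The pseudogenes AT1G36620 and AT5G35965 were the other two. The count of 10 was 4 without Col WT replicate 1 and 5 without Col WT replicate 2.

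The hybrids gave a measurement that did not enter the choice of genes: each read count was assigned to the Ler or the Col allele. With at least 20 allele counts required, 73 Ler-only genes had a share in WT F1, 5 had fewer counts and 2 had none. Of these 73, 57 had at least 95% of their counts from the Ler allele and 37 at least 99%. Among Col-only genes 70 had a share, 21 had fewer counts and 12 had none; 64 of the 70 had at least 95% from the Col allele and 54 at least 99%. Over all genes with a share, 3.1% had at least 95% from one allele in WT F1, and the median Ler share was 49.9%. Pooled over the set, the Ler share of Ler-only genes was 95.7% to 96.88% in the 6 prmt5-5 F1 libraries and 96.89% to 97.46% in the 6 WT F1 libraries. For Col-only genes it was 1.91% to 3.52% in prmt5-5 F1 and 1.49% to 2.3% in WT F1. The ranges of Ler-only genes came close without overlapping, and those of Col-only genes overlapped. AT4G32230, with 2 Ler counts in prmt5-5 F1 and 923 in WT F1, is part of the Ler-only sum.

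A test of the Ler against the Col allele was made for each gene. In WT F1 it called 30.0% of 16644 genes, and 67 Ler-only genes were higher from the Ler allele, 2 lower, 1 not called and 10 not tested. Of the Col-only genes 56 were lower from the Ler allele, 1 higher, 1 not called and 45 not tested. In prmt5-5 F1, where 33.2% of genes were called, the counts were 66 higher and 2 lower for Ler-only genes and 1 higher and 55 lower for Col-only genes. Genes enter this test through their active allele, so the counts over tested genes do not stand for all members.

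A few members had an allele share opposite to their set. The Ler-only gene AT4G00234, annotated as a mechanosensitive channel-like protein, had 2 of 256 counts from the Ler allele in prmt5-5 F1 and 4 of 174 in WT F1; a near-identical copy covers 99.8% of it. AT4G22410, a Ler-only gene annotated as tri-snRNP-associated-like, has a near-identical copy over 25.9% of its length. Its Ler share was 23.5% (95% exact interval 15.5% to 33.1%) in prmt5-5 F1 and 11.3% (6.16% to 18.6%) in WT F1. A near-identical copy covers 74.7% of the Col-only gene AT1G80980. Its Ler share was 69.1% (62.1% to 75.5%) in prmt5-5 F1 and 82.0% (76.3% to 86.8%) in WT F1. These intervals are exact binomial ones that cover counting error only, and they are too narrow if both reads of a pair were counted, since 75.0% of allele counts up to 20 were even.

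The share of the silent allele was then compared between genotypes. The test of a change of the allele ratio called 3.94% of 16644 genes (1.12% higher and 2.82% lower), among them 2 Ler-only genes with a higher and 3 with a lower Ler share in prmt5-5, and 1 Col-only gene with a higher one. Of these, 2 stayed past the threshold whichever single library was left out. AT5G26970, a protein of unknown function, had 327 of 504 counts from the Ler allele in prmt5-5 F1 (64.9%, 60.5% to 69.0%) against 461 of 536 in WT F1 (86.0%, 82.8% to 88.8%), a change of -1.93 in the log2 allele ratio (SE 0.34, adjusted p = 7.01e-05). The pseudogene AT5G35965 had 849 of 910 counts from Ler (93.3%) in prmt5-5 F1 against 1089 of 1095 (99.5%) in WT F1, a change of -3.28 (SE 0.57, adjusted p = 6.98e-05). For AT5G35965 the Col allele gave 61 counts in prmt5-5 F1 and 6 in WT F1. In the Col parents this gene had 4, 10 and 6 counts in prmt5-5 and 0, 0 and 3 in WT. The rule had capped that WT level, so the parental counts are a description and lend no support. The library values for AT5G26970 were 53.6% to 74.4% in prmt5-5 F1 and 81.3% to 98.2% in WT F1, which do not overlap. The Col-only gene AT4G04410 had a Ler share of 12.3% in prmt5-5 F1 against 0.889% in WT F1 (adjusted p = 0.0271), a call lost in 6 of 12 fits without 1 library. AT5G19097, a Col-only pseudogene, had a Ler share of 25.7% in prmt5-5 F1 and 3.39% in WT F1, which did not pass the test (adjusted p = 0.394). Over the 71 Ler-only genes with a share in both genotypes, the Ler share was higher in prmt5-5 for 24, lower for 36 and equal for 11. Over 67 Col-only genes it was higher for 26, lower for 19 and equal for 22. Most Ler-only shares lay near their upper bound and most Col-only shares near their lower bound. Ler-only shares thus had little room to rise and Col-only shares little room to fall. Ratio calls over all genes were also more often lower (2.82%) than higher (1.12%). Directions were not counted over all genes, so no gain of the silent allele is read from these splits.

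**Figure D5:**
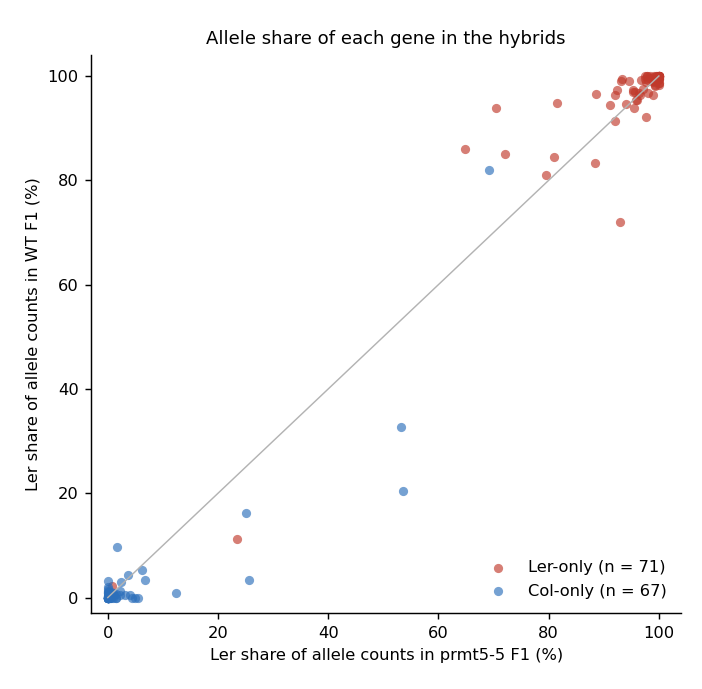
Ler share of allele counts (%) in prmt5-5 F1 (horizontal axis) and WT F1 (vertical axis) for 71 Ler-only and 67 Col-only genes with at least 20 counts in each, all 6 libraries of a genotype pooled. Most points lie near the corners, and AT5G26970 (64.9% and 86.0%) is among the Ler-only points left of the line of equal shares.

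The hybrids also gave the prmt5-5 effect on summed alleles in libraries separate from the parental ones. F1 levels are CPM of the allele-assigned counts and are not on the parental scale. In F1 Col x Ler, where 5.55% of 17301 genes were called (3.7% higher and 1.85% lower), 12 Ler-only genes rose, 3 fell and 10 were not tested, and 4 Col-only genes rose, 1 fell and 45 were not tested. In F1 Ler x Col, where 13.3% were called (6.91% higher and 6.43% lower), 12 Ler-only genes rose and 3 fell, and 6 Col-only genes rose and 2 fell. A test of the difference between the crosses called 0 of 17301 genes with edgeR, beside 756 genes, 2 of them members, at an unadjusted p under 0.05 and 10 genes called with DESeq2. In Col x Ler the 12 rises of Ler-only genes were 6 without prmt5-5 replicate 2 or WT replicate 2 and 7 without any one of prmt5-5 replicates 1 and 3 and WT replicate 3. The 4 rises of Col-only genes in that cross were 1 without prmt5-5 replicate 2 or WT replicate 3 and 2 without prmt5-5 replicate 1 or 3 or WT replicate 2. In Ler x Col the 6 rises of Col-only genes were 3 without prmt5-5 replicate 1 or 3 or WT replicate 2.

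AT5G17090 and AT5G44980 rose in both crosses. AT5G17090 had 40.5, 37.1 and 41.7 CPM in Col x Ler prmt5-5 against 5.95, 8.06 and 7.65 CPM in Col x Ler WT (log2 fold change 2.35, adjusted p = 6.4e-06), and 36.1, 29.2 and 27.4 CPM in Ler x Col prmt5-5 against 7.23, 7.69 and 6.35 CPM in Ler x Col WT (log2 fold change 1.97, adjusted p = 1.1e-05). AT5G44980 had 5.22, 7.95 and 9.74 CPM in Col x Ler prmt5-5 against 0.992, 0.827 and 1.63 CPM in Col x Ler WT (log2 fold change 2.60, adjusted p = 0.00111). In Ler x Col its log2 fold change was 2.39 (adjusted p = 0.000626). Of the 13 Ler-only genes that rose in Ler, 12 were tested in the hybrids, of which 12 had the same sign in Col x Ler and 9 were called, and 11 had the same sign in Ler x Col and 8 were called. Of all genes called higher in Ler and tested in the hybrids, 83.7% had the same sign and 14.6% were called in Col x Ler, and 88.9% and 27.2% in Ler x Col. Of the 9 Ler-only genes that fell in Ler, 8 were tested. In Col x Ler 7 had the same sign and in Ler x Col 8, and 3 were called in each cross. Of all genes called lower in Ler and tested in the hybrids, 81.8% had the same sign and 7.94% were called in Col x Ler. In Ler x Col these shares were 87.3% and 22.7%. AT4G32220 and AT4G32230 were among the genes called in each cross, and they lie in the stretch of low Ler share. Of the 16 Col-only genes that rose in Col, 10 were tested in the hybrids. In Col x Ler 8 had the same sign and 4 were called, beside 91.5% and 19.3% of all genes called higher in Col. In Ler x Col 10 had the same sign and 4 were called, beside 91.9% and 31.9%. Of the 7 Col-only genes that fell in Col, 4 were tested, and 3 had the same sign in each cross. Of these 4, 0 were called in Col x Ler and 2 in Ler x Col. Of all genes called lower in Col and tested in the hybrids, 90.5% had the same sign and 11.8% were called in Col x Ler. In Ler x Col these shares were 90.4% and 33.6%. No member called in its own accession was called in the opposite direction in a hybrid. Such calls were also rare among all genes. Of genes called lower in Ler, 17 of 2997 were called higher in Col x Ler. Of genes called higher in Ler, 18 of 3512 were called lower in Ler x Col. Of genes called lower in Col, 4 of 2181 were called higher in Ler x Col. The lack of opposite calls is therefore not particular to the members. The fall of hemb2 did not pass the test in either cross, at a log2 fold change of -0.85 (adjusted p = 0.625) in Col x Ler and -1.01 (adjusted p = 0.431) in Ler x Col.

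Members lay near each other along the chromosomes. With at most 2 other genes between neighbours, 22 of 78 placed Ler-only genes (28.2%) formed 10 runs and 33 of 103 Col-only genes (32.0%) formed 16 runs. In 1 Ler-only and 6 Col-only runs the members overlap in the annotation and may share reads. Without those runs 20 Ler-only and 21 Col-only genes were left in runs. Among other expressed genes, 0.795% had a Ler-only gene and 1.14% a Col-only gene that near. The Ler-only genes were spread as 21, 7, 17, 15 and 18 over chromosomes 1 to 5, and the Col-only genes as 24, 15, 20, 15 and 29. The longest run held the 4 Ler-only genes AT3G30805, AT3G30812, AT3G30813 and AT3G30817 within 22612 bp of chromosome 3 (12488978 to 12511589). In Ler, 2 of its 4 members passed the test. AT3G30813 had 7.72, 5.05 and 5.16 CPM in Ler prmt5-5 against 3.67, 2.88 and 3.04 CPM in Ler WT (log2 fold change 0.86, SE 0.21, adjusted p = 0.00869), and AT3G30817 had 4.95, 3.65 and 3.60 CPM against 1.62, 1.73 and 2.59 CPM (log2 fold change 1.00, adjusted p = 0.00983). AT3G30805 and AT3G30812 had log2 fold changes of 0.74 (adjusted p = 0.0709) and 0.70 (adjusted p = 0.0581) in Ler. In F1 Ler x Col all 4 rose, by 1.00, 0.97, 1.22 and 1.15 on the log2 scale in the order of the run, and in F1 Col x Ler 3 of the 4 rose. The call of AT3G30812 was lost in 4 of 12 fits without 1 library in Ler x Col and in 7 of 12 in Col x Ler.

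Calls could also differ within a run. AT5G17090 and its neighbour AT5G17100 lie 478 bp apart on the minus strand of chromosome 5. AT5G17100 had 10.61, 10.08 and 10.89 CPM in Ler prmt5-5 and 8.40, 7.19 and 7.81 CPM in Ler WT, which do not overlap but did not pass the test (log2 fold change 0.39, SE 0.16, adjusted p = 0.0782). In F1 Ler x Col AT5G17100 was called higher (log2 fold change 0.559, adjusted p = 0.042), a call lost in 7 of 12 fits without 1 library. In F1 Col x Ler it was not called (log2 fold change 0.195, adjusted p = 0.594). The difference between AT5G17090 and AT5G17100 was not tested. The reference promoters of both (250 bases before to 50 after the start; RefSeq, TAIR10.1, Col) are shown for comparison of this pair, with matches to CCAAT on either strand in capitals.
AT5G17090, chr5:5622493-5622792, minus strand: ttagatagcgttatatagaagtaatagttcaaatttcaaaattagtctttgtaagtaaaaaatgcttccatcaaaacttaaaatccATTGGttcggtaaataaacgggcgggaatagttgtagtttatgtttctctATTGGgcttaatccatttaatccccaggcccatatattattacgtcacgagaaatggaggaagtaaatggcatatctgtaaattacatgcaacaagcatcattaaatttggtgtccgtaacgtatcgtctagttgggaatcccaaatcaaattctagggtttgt
AT5G17100, chr5:5624751-5625050, minus strand: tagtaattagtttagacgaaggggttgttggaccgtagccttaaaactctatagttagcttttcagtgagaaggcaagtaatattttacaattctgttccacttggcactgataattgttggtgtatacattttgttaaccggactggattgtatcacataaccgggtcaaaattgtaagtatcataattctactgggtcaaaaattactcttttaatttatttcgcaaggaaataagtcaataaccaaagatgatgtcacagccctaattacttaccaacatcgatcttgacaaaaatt
CCAAT was found in AT5G17090 and not in AT5G17100, and it is present in 50.5% of 37897 promoters of this length. TATAAA, present in 48.8% of them, was in neither. A run of 3 on chromosome 5, spanning 20097 bp, mixed the sets, with the Col-only genes AT5G27890 and AT5G27895 beside the Ler-only gene AT5G27902. The longest Col-only run was AT5G34790, AT5G34795 and AT5G34800, adjacent genes within 7101 bp of chromosome 5. Other neighbours were of one family, such as the pentatricopeptide repeat genes AT1G63320 and AT1G63330 (Ler-only), the ankyrin repeat genes AT4G03490 and AT4G03500 (Col-only) and the C1-domain genes AT5G43030 and AT5G43040 (Col-only).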

How the data were processed

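The 24 libraries of whole-seedling polyA RNA were put in 8 groups of 3 by their sample titles. Per the submitters' processing notes, Trim Galore, FastQC and STAR 2.7.9a were used with TAIR10. How reads were counted, with or without strand, and how F1 reads were given to alleles are not given in the sources used. The authors deposited raw whole-number counts per gene, 1 per parental library and 1 per allele and F1 library, for 33602 genes, of which 3 had no value in Ler columns. CPM were computed from the deposited counts with column sums. The genes and family lists were chosen with earlier results of these data known.

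Counts were tested with edgeR 4.0.16 in R 4.3.3 (quasi-likelihood, robust, TMM, filterByExpr), all genes together, with Benjamini-Hochberg adjusted p under 0.05, two-sided. The 12 parental libraries shared 1 fit, the 12 F1 libraries (alleles summed) another, and the allele counts one more with library as a block. Self-tests on simulated counts were run first. Alternatives were DESeq2 1.42.0, its size factors, no filter, a replicate block and leaving out each library. Names, positions and sequences came from RefSeq (TAIR10.1), which matched 32835 identifiers and left 767 unmatched, and copies were sought with BLAST 2.17.0+. Named genes followed a rule: the highest members, the largest changes without overlap, allele shares against the set, the longest runs, the leading members of each family and the genes at each threshold. The Sadhu elements and the genes with a changed allele ratio or a call in the silent accession were chosen after their values were seen. Families were set by words in the RefSeq annotation. Depth ranges stand in the results, and intervals from counts (95%, exact) cover counting error only. Splicing was not analysed here, and no Ler genome was used here.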

Additional observations from a re-analysis of the deposited data

How the results depend on the processing

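No result changed direction under any alternative run. The size of the sets followed the thresholds: requiring 0 counts in the other accession left 23 Ler-only and 23 Col-only genes, at least 2 CPM left 43 Ler-only genes, thresholds met in every library left 48 and 52, and leaving out each WT replicate number gave 82 to 87 and 91 to 113. Directly adjacent genes put 14 Ler-only genes in runs. When each library was left out in turn, Ler-only genes that fell in Ler numbered 5 to 13, Col-only genes that fell in Col 3 to 10, and Ler-only genes higher in Col 4 to 11. In F1 Col x Ler, 6 to 12 Ler-only and 1 to 6 Col-only genes rose and 2 to 5 of both sets fell (4 with all libraries), the low end of the falls without any one of its prmt5-5 libraries, WT replicate 1 or 2 or Ler x Col prmt5-5 replicate 1. In F1 Ler x Col, 3 to 7 Col-only genes rose and 3 to 7 of both sets fell (5 with all libraries), the low end of the falls without prmt5-5 replicate 2. Without the members in stretches of low Ler share, a choice made after seeing the data, 2 genes fell in Col x Ler and 3 in Ler x Col. Calls of a changed allele ratio numbered 3 to 6, with 3 without Col x Ler WT replicate 1 or 2 or Ler x Col prmt5-5 replicate 2, and 2 with DESeq2. With DESeq2, 13 Col-only genes fell in Col. With the replicate number as a block, 4 fell. Same-numbered samples had correlations of their deviations of -0.332 to 0.461, so the numbers were not taken to pair samples. The cause of these shifts was not tested. Among single named genes, 225 alternative values kept their direction without passing the threshold and 1305 kept their call.

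In the hybrids 10 Ler-only and 45 Col-only genes had too few allele counts to be tested. These were not all genes of low level, as AT5G23830 had 15.6 CPM in Col WT, and the cause was not tested. Without counts in Ler, a Col-only gene that is missing there and one that is silent cannot be told apart. The Ler-only genes placed on the Col reference are present in that genome.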
